A study of Homo sapiens with 6 samples.

Results

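The genes described here are 10 transcriptional regulators of the cell cycle: the E2F factors E2F1, E2F2, E2F3, E2F7 and E2F8, the pocket proteins RB1 and RBL1, the MuvB subunit LIN54, the MYB factor MYBL2 and the forkhead factor FOXM1. They were chosen by gene symbol, and all 10 were found among the 12982 genes of the deposited RNA sequencing table. Expression was measured in the established cell line SW480, from a human colorectal adenocarcinoma, whose genotype is labelled WT, grown in DMEM with FBS and L-glutamine. One group of 3 libraries came from cells given the solvent DMSO, and the other group of 3 libraries from cells given MPM-1, a fluorescent mitochondrial probe molecule that the labels also call WT4. Both treatments lasted 24 h. The dose of MPM-1 in this experiment is not given in the sources used here, and nothing says whether the 3 libraries of a group came from separate cultures, so p-values measure only the spread between these libraries.

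These genes form the transcriptional switch that drives a cell through division. Most E2F factors bind DNA with a DP partner. E2F1, E2F2 and E2F3 activate the genes of DNA synthesis, while the pocket proteins RB1 and RBL1 hold E2F factors in check until cyclin-dependent kinases phosphorylate them. E2F7 and E2F8, which bind DNA without a DP partner, shut the same genes off again later in S phase, and their own transcription depends on E2F activity. LIN54 is the DNA-binding subunit of MuvB, a complex that represses cell cycle genes when joined to pocket proteins and activates the genes of mitosis when joined to B-MYB, the product of MYBL2, and then to FOXM1. In colorectal cancer cells that divide rapidly, the activating arm of this circuit is usually transcribed at a high level.

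The counts summed to between 31733667 and 40269820 per library, and the lowest count of any of the 10 genes in a library was 40, for E2F2. Changes are given in CPM, counts scaled to a common library total with TMM factors. The quasi-likelihood method of edgeR was used throughout, with p adjusted over all 12982 genes by Benjamini-Hochberg. A gene is said to have risen or fallen at an adjusted p under 0.05, and is called a DEG (differentially expressed gene) where the adjusted p was under 0.01 and the log2 fold change at least 1 in size. Of 9 markers of intestinal epithelium, all 9 were in the table, with EPCAM at 400 FPKM in DMSO and 360 FPKM with MPM-1. At an adjusted p under 0.05, 4 of the 9 fell and 4 rose, against 28.8% and 27.7% of all genes. CDX2 (log2 fold change -2.20) and KRT20 (-2.03) fell as DEGs, as did 8.75% of all genes, and CDX1 (-0.98) and VIL1 (-0.88) fell by less. The 4 that rose were KRT18 (0.89), KRT19 (0.89), CDH1 (0.82) and KRT8 (0.42). Of 12 markers of leukocytes, fibroblasts and endothelium, 9, including PTPRC, CD3E, PECAM1 and VWF, were not among the genes of the table. Together the other 3 had 32.4 to 46.6 FPKM in the DMSO libraries and 68.9 to 73.9 in those of MPM-1, nearly all of it CD68, which encodes a lysosomal protein, and the part of these markers in the results below was not tested.

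Several of these genes carry E2F binding words in their own promoters, and these sequences are shown because the genes both encode and are known to obey E2F factors. Promoter windows of 250 bases before to 50 bases after the start were taken from RefSeq on GRCh38.p14. A window within 2500 bases of the gene's start in GENCODE was available for 7 of the 10 genes. E2F8, FOXM1 and RB1 had none. Capitals mark the E2F words TTTCCCGC, TTTCGCGC, TTTGCCGC and TTTGGCGC and the shorter word GGCGGGA, searched on both strands, which can overlap each other. Each line runs 5′ to 3′ and, except for MYBL2, ends with the last base before the start. The stretches are E2F1 at chr20:33686386-33686505 (minus strand), E2F2 at chr1:23531234-23531353 (minus strand), E2F3 at chr6:20401759-20401878 (plus strand), RBL1 at chr20:37095998-37096117 (minus strand) and MYBL2 at chr20:43667063-43667092 (plus strand).
E2F1: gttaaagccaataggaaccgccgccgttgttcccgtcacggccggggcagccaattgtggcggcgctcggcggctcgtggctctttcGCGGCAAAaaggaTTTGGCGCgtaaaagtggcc
E2F2: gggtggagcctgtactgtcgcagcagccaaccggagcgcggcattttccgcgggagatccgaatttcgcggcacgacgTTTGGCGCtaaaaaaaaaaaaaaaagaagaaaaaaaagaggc
E2F3: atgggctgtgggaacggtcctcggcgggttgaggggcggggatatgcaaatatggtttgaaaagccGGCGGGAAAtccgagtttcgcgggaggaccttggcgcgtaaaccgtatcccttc
RBL1: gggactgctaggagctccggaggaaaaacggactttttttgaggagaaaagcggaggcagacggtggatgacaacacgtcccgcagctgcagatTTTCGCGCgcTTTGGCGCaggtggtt
MYBL2: gccgacgcgcttGGCGGGAgatagaaaagt
One of the 4 longer words was found in E2F1, E2F2, E2F3 and RBL1, and it occurred in 5.62% of the 8630 windows of tested genes. E2F1 held 2 of them, from -33 to -26 and from -20 to -13 relative to the start, and RBL1 held 2, from -26 to -19 and from -16 to -9. MYBL2 and LIN54 held the shorter word alone, which occurred in 26.6% of the windows, and E2F7 held neither. A match of letters is not a measured binding site.

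With MPM-1, 4 of the 10 regulators were lower as DEGs, namely MYBL2, E2F2, E2F8 and FOXM1, and none was higher as a DEG. Of all genes tested, 8.75% were lower and 5.58% higher by the same rule. At an adjusted p under 0.05 without a fold threshold, 7 had fallen and 1, RB1, had risen, against 28.8% and 27.7% of all genes (56.5% in either direction). In those 7 genes every MPM-1 library lay below every DMSO library, as in 33.3% of all genes, and in RB1 every MPM-1 library lay above, as in 31.0% (64.3% in either direction). E2F3 and LIN54 did not pass. The median log2 fold change of the 10 genes was -0.76, against -0.03 over all genes tested. In bulk RNA, less transcript in each cell and fewer cells in the phase that makes the transcript cannot be told apart.

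**Figure D1:**
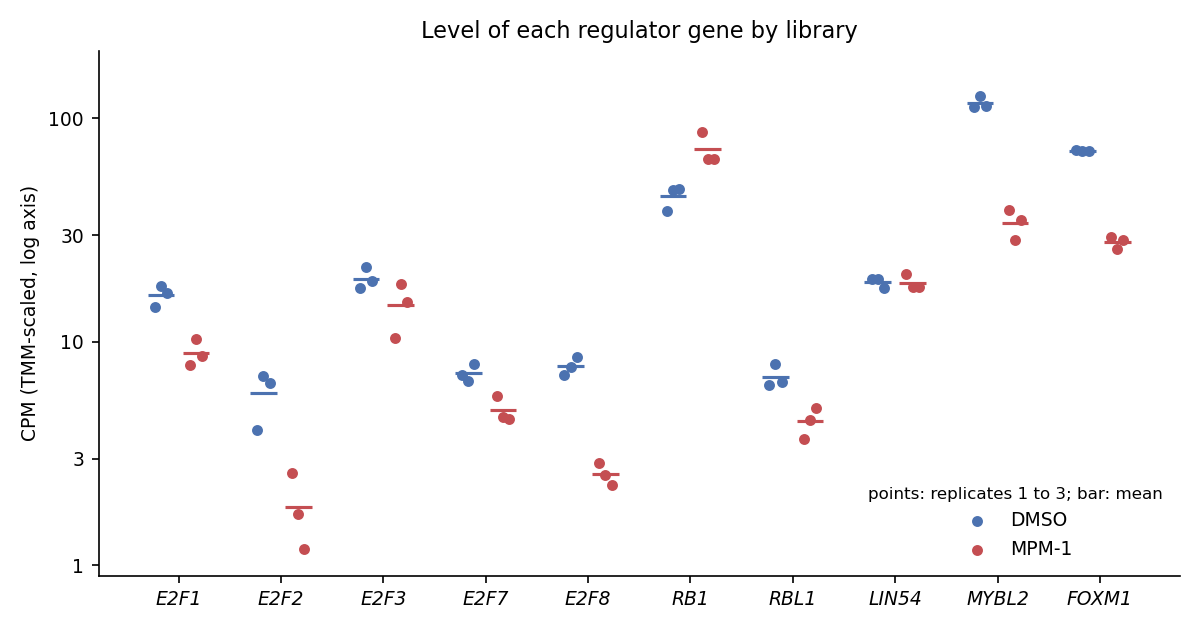
CPM (log axis) of the 10 regulator genes in each of the 3 DMSO and 3 MPM-1 libraries; each point is a library in the order of replicates 1 to 3 and each bar is the group mean. The MPM-1 points lie below all DMSO points in 7 genes and above them in RB1, and the groups overlap in E2F3 and LIN54.

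MYBL2 (ENSG00000101057, GRCh38 chromosome 20, 43667019 to 43716496, plus strand) had, with E2F2 and E2F8, one of the 3 lowest log2 fold changes of the 10 genes, whose order was not tested. B-MYB, its product, joins MuvB to switch on the genes of mitosis. MYBL2 stood at 112, 126 and 113 CPM in DMSO replicates 1 to 3 and at 38.8, 28.6 and 34.9 CPM with MPM-1. The groups were far apart, the lowest DMSO library being well above the highest MPM-1 library. The log2 fold change was -1.78 (SE 0.11, n = 3 libraries each, adjusted p = 2.87e-06 from edgeR), a 3.44-fold lower level, and it ranged from -1.87 to -1.65 when single libraries were omitted.

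FOXM1 (ENSG00000111206, chromosome 12, 2857681 to 2877155, minus strand), which follows B-MYB on the promoters of mitotic genes, fell with the smallest spread of the set. Its DMSO libraries held 71.9, 70.9 and 70.9 CPM, and its MPM-1 libraries 29.3, 25.9 and 28.4 CPM. The coefficient of variation was 0.785% in DMSO and 6.32% with MPM-1. The log2 fold change was -1.35 (SE 0.08, n = 3 each, adjusted p = 1.9e-06 from edgeR), or 2.55-fold lower. An exon of FOXM1 overlaps ITFG2 on the other strand, and since the sources used here do not say whether strand was used in counting, reads there could be shared.

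Of the activating E2F genes, E2F2 and E2F1 fell and E2F3 did not pass. E2F2 (ENSG00000007968, chromosome 1, 23506430 to 23531220, minus strand) went from 4.03, 7.06 and 6.55 CPM to 2.59, 1.69 and 1.19 CPM. Both groups were spread widely, with the highest library 1.75 times the lowest in DMSO and 2.18 times with MPM-1, although they did not overlap. The log2 fold change was -1.69 (SE 0.33, n = 3 each, adjusted p = 0.00187 from edgeR). E2F2 was no longer a DEG without DMSO replicate 2, at -1.54 with an adjusted p of 0.0103.

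E2F1 (ENSG00000101412, chromosome 20, 33675683 to 33686404, minus strand) fell from 14.3, 17.7 and 16.6 CPM to 7.88, 10.3 and 8.61 CPM. All 3 MPM-1 libraries were lower than the lowest DMSO library, and the log2 fold change was -0.86 (SE 0.16, n = 3 each, adjusted p = 0.00127 from edgeR), below the size needed for a DEG. It reached that size, at -1.01, with scaling by library size alone and with limma on log2(FPKM + 0.01). E2F3 (ENSG00000112242, chromosome 6, 20401906 to 20493715, plus strand) had 17.4, 21.5 and 18.6 CPM in DMSO and 10.4, 18.1 and 15.1 CPM with MPM-1. MPM-1 replicate 2 lay within the DMSO range, while replicate 3 was below it and replicate 1 far below it. Its log2 fold change of -0.40 (SE 0.19, n = 3 each) did not pass (adjusted p = 0.102 from edgeR), but it did without MPM-1 replicate 2 (-0.56, adjusted p = 0.0307), with library size alone (-0.55, adjusted p = 0.043) and in all 4 limma fits on FPKM (adjusted p from 0.0267 to 0.045). Without MPM-1 replicate 1 it was -0.19 (adjusted p = 0.28).

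The atypical repressors E2F7 and E2F8 both fell, E2F8 by more. E2F8 (ENSG00000129173, chromosome 11, 19224063 to 19241620, minus strand) went from 7.13, 7.71 and 8.56 CPM to 2.86, 2.54 and 2.29 CPM, a log2 fold change of -1.61 (SE 0.19, n = 3 each, adjusted p = 0.00011 from edgeR). Its groups were narrow and well separated, and it overlaps the non-coding gene AC009652.2 on the other strand. E2F7 (ENSG00000165891, chromosome 12, 77021247 to 77065580, minus strand) went from 7.1, 6.69 and 7.96 CPM to 5.71, 4.62 and 4.5 CPM, a log2 fold change of -0.55 (SE 0.18, n = 3 each, adjusted p = 0.0272 from edgeR). The E2F7 groups were close to each other, and with a single library left out the adjusted p was above 0.05 in 3 of the 6 fits, at 0.101 without DMSO replicate 3, 0.0782 without MPM-1 replicate 2 and 0.102 without MPM-1 replicate 3.

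The pocket protein genes moved in opposite directions. RB1 (ENSG00000139687, chromosome 13, 48303726 to 48599436, plus strand), which encodes the retinoblastoma protein that binds the activating E2F factors, had 38.6, 47.9 and 48.3 CPM in DMSO and 86.9, 65.9 and 65.9 CPM with MPM-1. Every MPM-1 library was higher, replicate 1 most of all. The log2 fold change was 0.70 (SE 0.13, n = 3 each, adjusted p = 0.00146 from edgeR), a 1.62-fold higher level that stayed at 0.57 to 0.79 when single libraries were omitted. RBL1 (ENSG00000080839, chromosome 20, 36996349 to 37095995, minus strand), whose product binds mainly the repressive E2F factors, went the other way, from 6.43, 7.92 and 6.6 CPM to 3.68, 4.49 and 5.06 CPM. Its log2 fold change was -0.66 (SE 0.20, n = 3 each, adjusted p = 0.0168 from edgeR), with 0.0732 without DMSO replicate 2 and 0.0521 without MPM-1 replicate 1. RBL1 overlaps the non-coding gene AL136172.1 on the other strand.

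LIN54 (ENSG00000189308, chromosome 4, 82909973 to 83012926, minus strand) was at nearly the same level in both groups. Its values were 19, 19.1 and 17.4 CPM in DMSO and 20.1, 17.6 and 17.5 CPM with MPM-1, and the groups overlapped. The log2 fold change was -0.01 (SE 0.11, n = 3 each, adjusted p = 0.973 from edgeR), with no steady sign between settings.

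**Figure D2:**
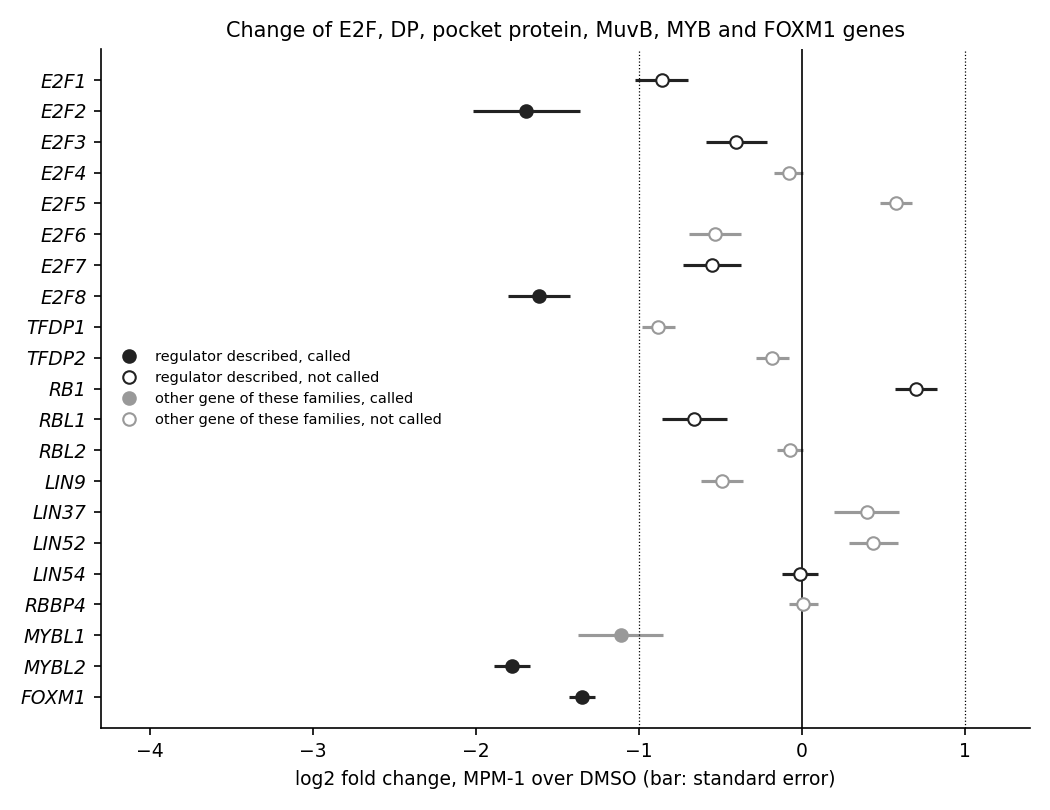
Log2 fold change of MPM-1 over DMSO with its standard error (3 libraries per group) for the 10 regulators (black) and 11 further genes of the same families (grey); filled points are DEGs and dotted lines mark a log2 fold change of 1 in size. MYBL2, E2F2, E2F8, FOXM1 and the related MYBL1 are the filled points, and RB1 (0.70) lies farthest to the right.

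Because a comparison of 2 fold changes needs its own test, ratios of 2 regulators were formed within each library from the FPKM, the deposited fragments scaled for gene length and library size. Such a ratio does not depend on how whole libraries are scaled, but the FPKM did not follow the counts alike in all genes and libraries. LIN54 had 19, 19.1 and 17.4 CPM in DMSO but 3.87, 3.58 and 2.92 FPKM. E2F5 had 36.1 CPM and 8.99 FPKM in MPM-1 replicate 1, but 30.9 CPM and 10.9 FPKM in replicate 2. The ratios, orders and shares by FPKM below carry such differences, whose cause was not tested. With 3 libraries against 3, the two-sided exact permutation test cannot go below p = 0.1, so none of the 6 pairs could pass. In 5 pairs the groups did not overlap (p = 0.1, exact permutation test; 0.12 after Benjamini-Hochberg adjustment over the 6 pairs).

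RBL1 relative to RB1 had log2 ratios of -2.84, -2.85 and -3.12 in DMSO and of -4.82, -4.13 and -3.95 with MPM-1, a difference of -1.37 (SE 0.28, n = 3 each). MYBL2 relative to LIN54, its MuvB partner, went from 3.45, 3.78 and 3.92 to 2.00, 1.90 and 2.20, a difference of -1.68 (SE 0.17). MYBL2 relative to FOXM1 went from 1.02, 1.14 and 1.05 to 0.79, 0.54 and 0.68, a difference of -0.40 (SE 0.08). Thus MYBL2 was lower against both partners in every MPM-1 library than in any DMSO library. The differences against LIN54 and FOXM1 were not tested against each other.

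E2F7 relative to E2F8 went from -0.71, -0.91 and -0.90 to 0.30, 0.19 and 0.27 on the log2 scale, a difference of 1.10 (SE 0.07). E2F8 was therefore the more abundant of these repressors per length in each DMSO library, and E2F7 in each MPM-1 library. E2F1 relative to E2F3 differed by -0.36 (SE 0.14), with 1 MPM-1 library at 0.52 close to the lowest DMSO value of 0.54. For E2F2 relative to E2F1 the groups overlapped, the difference being -0.86 (SE 0.42, n = 3 each, p = 0.2 by exact permutation test).

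The order of the regulators by level per length also differed between the groups. In DMSO the order was MYBL2 (45.2 ± 3.56 FPKM, SD, n = 3), FOXM1 (21.5 ± 0.768), RB1 (9.58 ± 1.34), E2F1 (6.61 ± 0.826), E2F3 (4.33 ± 0.469), LIN54 (3.45 ± 0.485) and E2F8 (2.32 ± 0.327), each with a range clear of the next. E2F7 (1.29 ± 0.124), RBL1 (1.25 ± 0.164) and E2F2 (1.16 ± 0.339) came last and did not differ beyond their spread. With MPM-1, RB1 (13.9 ± 2.07 FPKM) stood first by its mean, with a range overlapping that of MYBL2 (11.8 ± 1.54). FOXM1 (7.39 ± 0.362) followed, clear of its neighbours. E2F1 (3.28 ± 0.528), LIN54 (2.88 ± 0.367) and E2F3 (2.82 ± 0.797) overlapped in turn, as did E2F7 (0.794 ± 0.0924), RBL1 (0.71 ± 0.12) and E2F8 (0.666 ± 0.0662), and E2F2 was lowest at 0.32 ± 0.121.

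**Figure D3:**
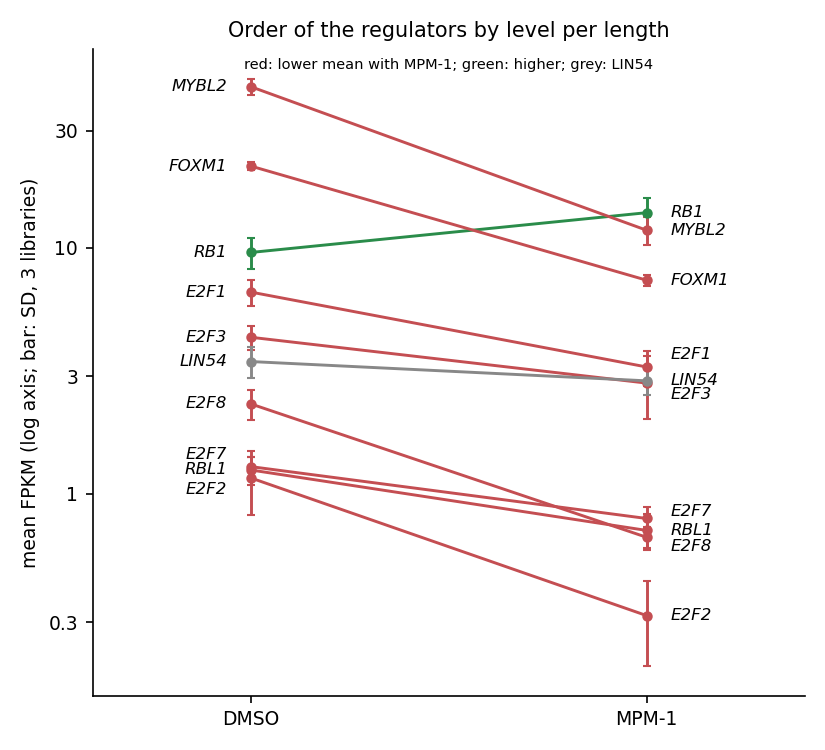
Mean FPKM (log axis) of the 10 regulators in DMSO and MPM-1, with bars for the SD over 3 libraries. RB1 is the one gene whose mean goes up, from 9.58 to 13.9 FPKM, and it passes MYBL2, which goes from 45.2 to 11.8 FPKM.

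The regulators were then set beside the rest of their families, a list of 13 genes of which TFDP3 and MYB were not among the genes of the table. Of the 11 measured, 1 (9.09%, beside 8.75% of all genes) was a lower DEG, MYBL1, an A-type MYB factor (log2 fold change -1.11, adjusted p = 0.00513 from edgeR), which lost the call in 5 of the 6 fits with a library left out. At an adjusted p under 0.05, 4 fell and 2 rose, 6 of 11 in all, close to the share of 56.5% over all genes. TFDP1, the main DP partner of the E2F factors, went from 122, 155 and 143 CPM to 70.2, 78.8 and 79 CPM (-0.88, adjusted p = 7.65e-05). LIN9, a MuvB subunit, fell (-0.49, adjusted p = 0.0104), as did the repressor E2F6 (-0.53, adjusted p = 0.0177, with 0.0651 without DMSO replicate 3). E2F5, a repressive E2F, rose from 21.4, 22.6 and 21.7 CPM to 36.1, 30.9 and 31.2 CPM (0.58, adjusted p = 0.000805), but by 0.25 only with limma on log2(FPKM + 0.1), where it did not pass. LIN52, a small MuvB subunit, rose (0.44, adjusted p = 0.0286), but did not pass in 5 of the 6 fits with a library left out, where the adjusted p was 0.0522 to 0.0745, nor with library size alone (0.28, adjusted p = 0.131). The remaining 5 did not pass: E2F4 (-0.08), RBL2 (-0.07), TFDP2 (-0.18), LIN37 (0.40) and the chromatin subunit RBBP4 (0.01), with adjusted p from edgeR of 0.481, 0.509, 0.132, 0.116 and 0.935. LIN37 passed without MPM-1 replicate 1 (0.58, adjusted p = 0.0193). Exons of E2F5, RBL2 and RBBP4 overlap genes on the other strand, and those of LIN37 also a gene on its own strand.

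Within the summed FPKM of E2F1 to E2F8, a summary chosen after the values were seen, the activators E2F1 to E2F3 made up 15.5%, 19.9% and 17.8% in the DMSO libraries and 11%, 13.2% and 11.8% in the MPM-1 libraries. E2F7 and E2F8 made up 5.28% ± 0.57 in DMSO and 2.78% ± 0.53 with MPM-1 (SD, n = 3). E2F4 to E2F6 took the rest, 77% ± 2.46 in DMSO and 85.2% ± 0.755 with MPM-1, most of it E2F4. In each of these 3 shares the groups did not overlap (p = 0.1 by exact permutation test, the smallest possible). The sum itself was 68.1 ± 0.94 FPKM in DMSO and 53.2 ± 5.38 FPKM with MPM-1, so a larger share need not be a higher level. The share of E2F4 alone was 53.2% ± 4.31 and 58.2% ± 1.92, and its groups overlapped. That of E2F5 was 11.7% ± 0.318 and 18% ± 1.16, while that of E2F6 was lower with MPM-1 (12.1% ± 2.1 and 9.06% ± 1.31).

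RB1 made up 40.6%, 44.1% and 46.3% of the summed pocket protein FPKM in DMSO and 60.8%, 57.2% and 54.9% with MPM-1. RBL1 went from 5.71% ± 0.408 to 2.99% ± 0.736 and RBL2 from 50.6% ± 2.8 to 39.4% ± 2.25 (SD, n = 3). The sum itself was 21.9 ± 1.87 FPKM in DMSO and 24.1 ± 2.38 FPKM with MPM-1, and its groups overlapped (p = 0.4, exact permutation test). RB1 was thus the most abundant pocket protein transcript per length in each MPM-1 library, and RBL2 in each DMSO library.

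**Figure D4:**
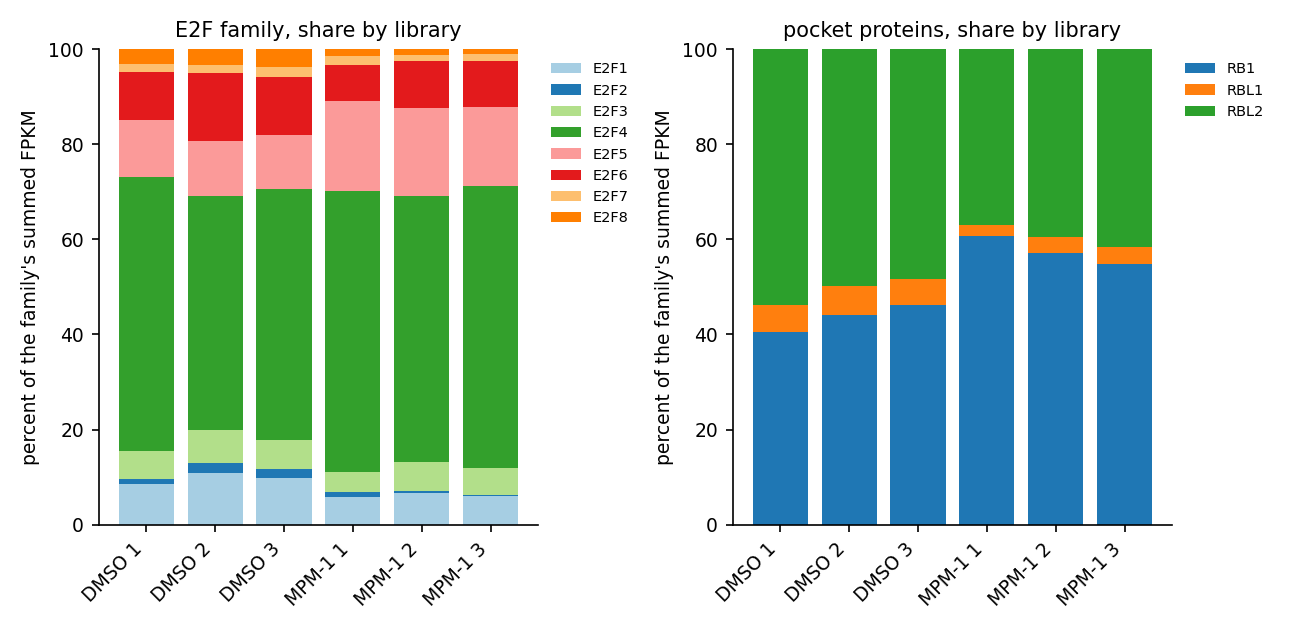
Share of each gene in the summed FPKM of the E2F family (left) and of the pocket proteins (right), as stacked bars in percent for each library. E2F4 takes the largest E2F share in all 6 libraries, and RB1 goes from 40.6% to 46.3% of the pocket proteins in DMSO to 54.9% to 60.8% with MPM-1.

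The target genes of these regulators were described from lists written from general knowledge, with earlier results of these data known. Of 42 G1/S genes, which E2F factors activate for DNA synthesis, 14 were DEGs, all lower, and the median log2 fold change was -0.91. The largest falls were in UHRF1 (-2.09), which maintains DNA methylation, and ASF1B (-1.86), a histone chaperone, followed by FEN1, the flap endonuclease of replication, and MCM2, a subunit of the replicative helicase, which were level at -1.50. At an adjusted p under 0.05, 36 of the 42 fell and 1 rose, against 28.8% and 27.7% of all genes. The 1 that rose was MSH6 (0.43, adjusted p = 0.0256 from edgeR), a mismatch repair gene chosen after its value was seen. With scaling by library size alone, 25 of the 42 were lower DEGs.

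Of 54 G2/M genes, which MuvB, B-MYB and FOXM1 activate for mitosis, 48 were DEGs, all lower, and the median was -1.42. In all 54 every MPM-1 library lay below every DMSO library, as in 33.3% of all genes. The largest falls were in KIF20A (-2.83), a mitotic kinesin, CENPF (-2.40), a kinetochore protein, and LMNB1 (-2.37), a lamin. The share of lower DEGs was 88.9% in this list and 33.3% in the G1/S list, beside the 8.75% of all genes. The word TTTGAA, the cell cycle homology region that LIN54 binds, was found on either strand in 31 of the 44 windows available for the G2/M genes and in 8.9% of all 8630 windows. Within this list the median log2 fold change was -1.42 in the 31 genes with the word and -1.77 in the 13 without it. Lower DEGs made up 96.8% and 84.6% of them, and whether the word goes with the fall was not tested. For the G1/S genes and the regulators themselves under 80% had a window, so the share with an E2F word was not compared.

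Of 22 measured genes upstream of the switch, 8 were lower and 3 higher as DEGs (8.75% and 5.58% of all genes), with a median of -0.46. The list holds cyclins, their kinases and inhibitors, and also MYC, SKP2, CKS1B, FZR1, FBXO5, CDC25A and DYRK1A. Of these further genes, MYC (-1.64), SKP2, FBXO5 and CDC25A were among the lower DEGs. At an adjusted p under 0.05, 12 of the 22 fell and 4 rose, against 28.8% and 27.7% of all genes. The falls were largest in CCNF (-2.93), a ubiquitin ligase subunit that targets E2F factors for degradation, CDKN2C (-2.88), an inhibitor of CDK4 and CDK6 and itself an E2F target, and SKP2 (-1.72), which directs CDKN1B to degradation, with CDC25A (-1.71) next to it. The 3 higher DEGs encode CDK inhibitors, CDKN2B (1.96), CDKN1C (1.20) and CDKN1A (1.05), and the other gene that rose was the cyclin CCNE1 (0.74, adjusted p = 0.000982 from edgeR). Of the inhibitors, CDKN1A and CDKN1C were just under 1 with limma on log2(FPKM + 0.1), at 0.92 and 0.98. CDKN1A was also under 1 with library size alone (0.90), without DMSO replicate 2 (0.99) and without DMSO replicate 3 (0.96).

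**Figure D5:**
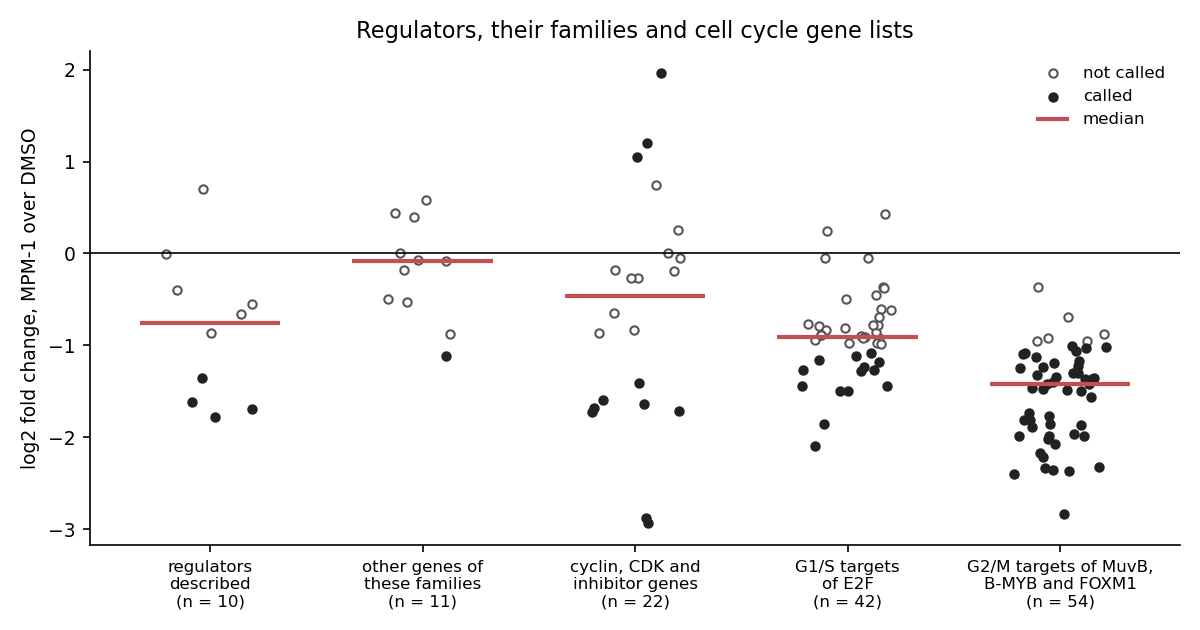
Log2 fold change of MPM-1 over DMSO for each gene of 5 lists, with filled points for DEGs and a red bar for the list median. The medians are -0.76 for the regulators, -0.08 for the other genes of their families, -0.46 for cyclin, CDK and inhibitor genes, -0.91 for G1/S targets and -1.42 for G2/M targets. The list of cyclin, CDK and inhibitor genes also holds MYC and other upstream regulators.

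The genes with the most similar pattern were sought among 9065 others by the root mean square difference, over the 6 libraries, of log2 CPM relative to each gene's own DMSO mean. For FOXM1 these were ANLN (0.0263), an anillin of the cleavage furrow, and EPHB3 (0.044), for E2F8 PBK (0.0789), a mitotic kinase, and HMGB2 (0.105), and for E2F2 SKP2 (0.223) and HYAL1 (0.278). For MYBL2 they were FGFR4 (0.0915) and SYTL2 (0.119), for E2F1 FP565260.1 (0.0293) and ATG4C (0.0581), for E2F3 FEM1A (0.0441) and PUS1 (0.0734), and for E2F7 PHF19 (0.0527) and TYRO3 (0.0554). RB1 was closest to STX7 (0.0479) and SMARCC1 (0.0624), RBL1 to GYS1 (0.0514) and MANEAL (0.0602), and LIN54 to ACSL1 (0.0139) and FKBP9 (0.0285). The median difference over all candidates lay between 0.301 for LIN54 and 1.3 for MYBL2. The nearest of 9065 candidates lies far below such a median by selection. Because each gene was set against its own DMSO mean, a near match mostly reflects a fold change of like size, such as 0.70 for both RB1 and STX7. Whether the matched genes share any regulation was not tested.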

How the data were processed

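RNA sequencing was carried out on 3 DMSO and 3 MPM-1 libraries of SW480 cells, prepared with an mRNA kit and analysed by a sequencing company. The authors deposited 1 table with raw counts per gene and with FPKM, fragments scaled by them for length and library size, and also their own log2 fold change and FDR, which were not used. The processing notes name HISAT2, DESeq2 and mm10, a mouse build, whereas the gene identifiers are human. The counter, annotation and strand setting are not given in the sources used here. Every gene had at least 115 counts in total, so weaker genes were not analysed here.

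Counts were tested in R 4.3.3 with edgeR 4.0.16 (TMM, quasi-likelihood, no covariates), checked on simulated counts. Coordinates come from GENCODE 29 on GRCh38, by identifier. Alternatives used DESeq2 1.42.0 and limma 3.58.1 on log2(FPKM + pseudocount), run on the 11497 genes averaging 1 FPKM or more, without E2F2 and RBL1. Members and lists were chosen with earlier results of these data known. Named were all regulators and family genes, the 3 largest rises and falls among DEGs in each other list, and the 2 nearest patterns among genes with at least 10 CPM. The depth per library gives counting error only. Within a group, counts of any 2 libraries differed beyond sampling noise (chi-square statistic of 15.4 to 33.2 per gene).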

Additional observations from a re-analysis of the deposited data

How the results depend on the processing

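MYBL2, FOXM1, E2F8, E2F2, E2F1, E2F7 and RBL1 kept a negative log2 fold change, and RB1 a positive one, under every alternative in which they were tested. E2F7 and RBL1, however, did not pass at an adjusted p under 0.05 in some of the fits with a library left out. Scaling by library size alone put the median over all genes at -0.18 on the log2 scale, and limma on log2(FPKM + 0.1) at -0.15, against -0.03, so falls grow and rises shrink there. The number of regulators lower as DEGs was 5 with library size alone, 3 with limma on log2(FPKM + 0.1) and 2 with limma on log2(FPKM + 1). These limma fits did not test E2F2, and in the last E2F8 reached -0.99. With a library left out the number was 3 to 4. At an adjusted p under 0.05 without a fold threshold, 6 or 7 were lower with a library left out. It was 8 with library size alone, with the replicate number as a block and with unfiltered limma. In the main edgeR fit, 7 were lower and 1 higher. Under that threshold 36 G1/S genes were lower and 1 higher, and among the other family genes 4 were lower and 2 higher. Of all genes, 28.8% were lower and 27.7% higher under it.

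The other family genes held 2 lower DEGs with library size alone and with unfiltered limma, and 0 to 1 with a library left out, and their median of -0.08 moved to -0.23 with library size alone and with limma at 0.1, 0.01 and unfiltered. Upstream genes had a median of -0.61 with library size alone and with limma at a pseudocount of 1, -0.62 at 0.1 filtered or not, and -0.63 at 0.01. They held 0 higher DEGs in the filtered limma fits and 1 in the unfiltered one. CDKN2B, weakly expressed at 0.257 FPKM in DMSO and 0.838 FPKM with MPM-1, was not tested in the filtered fits. Lower G1/S DEGs numbered 25 with library size alone, 22 with limma at 0.1 filtered or not and 23 at 0.01, with medians of -1.06, -1.04, -1.05 (unfiltered) and -1.07. The G2/M median was -1.57 with library size alone and with limma at 0.01, and -1.55 at 0.1 filtered or not.

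LIN54 was at 0.01 with DESeq2's size factors and test, and between -0.06 and 0.05 with a library left out. RBBP4 was at -0.14 with library size alone, -0.16 with limma at 0.1 and 1, -0.17 at 0.01, and between -0.05 and 0.09 with a library left out, and RBL2 between -0.10 and 0.01. The cause was not tested. With the replicate number as a block, 712 genes were higher and 1120 lower as DEGs, against 725 and 1136 without it, and of the regulators E2F3 then passed at an adjusted p under 0.05 (-0.42, adjusted p = 0.0332 from edgeR). Same-numbered libraries deviated together with correlations of 0.0214, 0.114 and -0.0737, and only replicate 2 correlated best with its own number, so the numbers were not taken to pair the libraries.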

Other observations

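Among the cyclin genes, described after their values were seen, both E cyclins moved apart. CCNE1 rose from 12.3, 13.5 and 15.2 CPM to 23.6, 20.3 and 24.5 CPM (log2 fold change 0.74, adjusted p = 0.000982 by edgeR), while CCNE2 fell from 1.79, 2.34 and 1.86 CPM to 0.656, 1.01 and 0.596 CPM (-1.41, adjusted p = 0.0053). Both are textbook E2F targets that encode partners of CDK2, and neither pair of groups overlapped. CCNA2, the A cyclin of S and G2 phase, fell by 1.59 on the log2 scale, and CDC25A, the phosphatase that activates CDK2, by 1.71. CCND3 fell (-0.83, adjusted p = 0.000155), whereas CCND1 (-0.18), CDK4 (-0.05) and CDK6 (0.25) did not pass, with adjusted p of 0.0666, 0.603 and 0.0593. CDKN1B, a CDK inhibitor, fell (-0.86, adjusted p = 0.0038) while CDKN1A and CDKN1C rose. CDC6, a licensing factor and classical E2F target, was at -0.05 (adjusted p = 0.64) and SLBP at -0.05 (adjusted p = 0.587).

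The regulators also varied between libraries of one treatment. DMSO replicate 1 was the lowest of its group in 7 of the 10 genes, and MPM-1 replicate 1 the highest of its group in 7. The coefficient of variation was larger with MPM-1 than with DMSO in each of the 10 genes, from 6.32% against 0.785% for FOXM1 to 38.9% against 27.6% for E2F2. How common these patterns were among all genes was not counted, so they are not shown to be particular to the regulators.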
